A study of Mus musculus with 48 samples.

Results

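The unfolded protein response genes described here are 10 of the 18434 genes that could be named on the arrays: *Xbp1*, *Atf6*, *Ern1*, *Eif2ak3*, *Atf4*, *Ddit3*, *Atf3*, *Trib3*, *Ppp1r15a* and *Herpud1*. Every probe whose accession leads to one of these symbols was taken, which gave 12 of 41174 probes, with a second probe each for *Atf6* and *Trib3*. The genes were selected on measured values, those of the liver comparison of HH and LH, so their values in that comparison are given below as a description without a test. All 12 probes were well above background in the mouse channel on all 24 liver and 24 colon arrays, and none was left out by a filter on low values.

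The unfolded protein response is the set of signals that a cell sends from the endoplasmic reticulum (ER) to the nucleus when proteins fold poorly in the ER. Its sensors are proteins of the ER membrane. IRE1 alpha, the product of *Ern1*, splices the *Xbp1* transcript so that it encodes an active transcription factor, ATF6 is cut in the Golgi to release its own transcription factor, and PERK, the product of *Eif2ak3*, phosphorylates eIF2 alpha, which slows translation and favours that of *Atf4*. ATF4 drives *Ddit3* (CHOP), *Atf3*, *Trib3* and *Ppp1r15a* (GADD34), the last of which restores translation, and *Herpud1* encodes an ER membrane protein of ER-associated degradation. The liver is a secretory organ with abundant ER, and in the colon the secretory goblet cells carry a sensor of their own, *Ern2*. A microarray probe of this kind measures the amount of transcript and does not tell spliced from unspliced *Xbp1*, nor the cut or phosphorylated form of a sensor.

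RNA of the liver and the colon of C57BL/6 offspring aged 12 weeks, described in the study as males on a high-fat diet, was hybridised to 48 Agilent 2-colour arrays, 24 for each tissue. In a group name the first letter is the diet of the dam through gestation and lactation and the second that of the offspring after weaning, H being supplemented with selenium and folate and L low in both. HH mice thus had diet H throughout, HL mice changed to diet L at weaning, LH mice changed from L to H, and LL mice had diet L throughout. The colon came from 6 mice of each group, and the liver from 6 mice of each group other than HH, which had 5 because 1 of its mice had 2 arrays, averaged here. The labels tie no liver to a colon of the same mouse, and whether mice of a group shared a dam is not given there, so that the p-values measure the spread between these mice. The study describes 6 offspring in each group and the removal of both tissues, so that a liver and a colon may come from the same mouse. The comparison of the tissues took them as separate mice, and such a pairing was not used.

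Each value is the log2 ratio of the RNA of a mouse (Cy3) over a common reference (Cy5), so that a value of 1 is 2 times the reference. The reference is pooled intestinal and liver RNA according to the study's methods and came from a pregnant mouse with its foetus, taken whole, according to the deposited design. Its own level of each gene enters every ratio, and the ratios of different genes are therefore not ranked against each other. A difference named A *vs.* B is B minus A, with its standard error (SE). Spots well above background in Cy3 made up 55.1 to 66.0% of the liver and 66.8 to 73.7% of the colon arrays. All 6 hepatocyte markers were higher in the liver, and all 7 goblet cell markers and 6 of 7 markers of the colon epithelium were higher in the colon. The female transcript *Xist* gave a signal in 2 liver and 6 colon mice, where the study describes males. Among them liver LL replicate 6, colon HH replicates 1 and 5 and colon LL replicate 5 also gave the Y-linked *Eif2s3y*. Its log2 Cy3 signal was 10.09 to 11.17 in these mice, and 6.29 to 7.37 in the rest of those with *Xist*. The *Xist* signal alone is therefore not a count of females, and its cause was not tested. Of the mice, 3 stood apart from their tissue. HL replicate 1 in the liver had a mean of 1.28 over 10 pancreatic acinar genes, against -3.09 to -1.79 in the other livers. HH replicate 3 in the liver had the lowest mean over 10 clock genes of the *Dbp* phase, at -0.36. LL replicate 4 in the colon had a mean of 0.45 over 5 Kupffer cell genes, against at most -1.96 in the other colons. Values that moved much without one of them are given both ways. The RNA is of whole tissue, so that fewer cells of a type and less RNA per cell cannot be told apart.

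The genes lie on several chromosomes of the mouse genome (RefSeq, GRCm38.p6). *Xbp1* lies at chr11:5520641-5525993 and *Ern1* at chr11:106397620-106487796, *Atf6* at chr1:170704457-170868585 and *Atf3* at chr1:191170296-191183333. *Eif2ak3* lies at chr6:70844484-70905241, *Atf4* at chr15:80255184-80257545 and *Ddit3* at chr10:127290793-127296291. *Trib3* lies at chr2:152337425-152344060, *Ppp1r15a* at chr7:45522917-45526268 and *Herpud1* at chr8:94386429-94395371. The factors of the response bind known short DNA elements, which were searched on both strands in the RefSeq window of 300 bases around the gene start, 250 before it and 50 from it, for the 9 genes that have one. The ER stress response element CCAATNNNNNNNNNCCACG, bound by ATF6 with NF-Y, was in none of the 9 windows and in 0.119% of all 32851 windows. Its second form ATTGGNCCACG was in 1 window, that of *Herpud1*, and in 0.0365% of all windows. The XBP1 and ATF6 element TGACGTGG was in none of the 9 and in 0.676% of all. The ATF4 and C/EBP element TGATGNAA was in the windows of *Herpud1*, *Atf3* and *Trib3* and in 3.97% of all, and the CRE element TGACGTCA in that of *Ppp1r15a* and in 1.79% of all. No pair of these elements overlapped in a window. A match is a run of letters and not a measured binding site.

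The windows of *Xbp1*, *Herpud1*, *Trib3* and *Ppp1r15a* are shown, the first pair because these genes differed most between HH and LH livers, *Trib3* because it differed most between liver and colon, and *Ppp1r15a* because its difference between the tissues was the smallest. Capitals mark a match to one of the elements and the rest is in lower case, 5′ to 3′ on the strand of the gene.
Xbp1 (chr11:5520391-5520690, plus strand): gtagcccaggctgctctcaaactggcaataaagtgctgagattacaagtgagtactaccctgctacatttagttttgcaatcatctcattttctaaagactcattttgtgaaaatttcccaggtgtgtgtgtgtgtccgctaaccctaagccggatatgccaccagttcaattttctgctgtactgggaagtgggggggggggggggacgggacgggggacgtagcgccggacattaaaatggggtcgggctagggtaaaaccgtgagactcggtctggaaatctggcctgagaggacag
Herpud1 (chr8:94386179-94386478, plus strand): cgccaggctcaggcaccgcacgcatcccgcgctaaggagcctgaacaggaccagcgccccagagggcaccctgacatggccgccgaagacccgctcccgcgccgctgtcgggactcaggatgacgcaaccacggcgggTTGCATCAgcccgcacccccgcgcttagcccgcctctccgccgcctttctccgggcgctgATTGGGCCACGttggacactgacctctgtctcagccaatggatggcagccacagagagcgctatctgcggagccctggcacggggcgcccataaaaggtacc
Trib3 (chr2:152344011-152344310, minus strand): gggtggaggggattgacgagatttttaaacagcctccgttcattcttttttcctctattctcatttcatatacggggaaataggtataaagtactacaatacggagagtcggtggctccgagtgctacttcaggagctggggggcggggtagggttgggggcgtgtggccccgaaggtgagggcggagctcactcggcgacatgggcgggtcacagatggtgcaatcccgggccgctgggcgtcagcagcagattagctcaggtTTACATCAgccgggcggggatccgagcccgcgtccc
Ppp1r15a (chr7:45526219-45526518, minus strand): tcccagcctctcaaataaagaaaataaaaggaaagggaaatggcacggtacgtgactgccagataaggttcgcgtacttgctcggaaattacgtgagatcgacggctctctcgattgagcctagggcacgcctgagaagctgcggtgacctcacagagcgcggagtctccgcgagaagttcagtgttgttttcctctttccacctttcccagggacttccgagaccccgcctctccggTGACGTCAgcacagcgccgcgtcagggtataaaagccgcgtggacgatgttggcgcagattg
The window of *Herpud1* held both the second ER stress response element, from base -52 to -42 counted from the gene start, and the ATF4 and C/EBP element on the opposite strand, from -112 to -105. In *Trib3* the ATF4 and C/EBP element lay on the opposite strand within the transcript, from base 15 to 22, and in *Ppp1r15a* the CRE element lay from -12 to -5. The window of *Xbp1* held none of the 5 elements.

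The transcript levels of this family differed between the tissues. *Trib3*, *Herpud1*, *Ern1* and *Atf6* were higher in the liver, by differences of 1.02 to 2.21 on the log2 scale, and *Atf3* was lower in the liver by 0.83. These 5 of 10 genes passed a fold change of 1.5 and an adjusted p of 0.05 (limma over all probes, Benjamini-Hochberg), against 30.4% of all 41171 probes tested, and the 4 higher genes compare with 14.6% of all probes called higher in the liver. *Atf4*, *Ddit3* and *Eif2ak3* passed the adjusted p without the fold, and *Xbp1* and *Ppp1r15a* did not pass it. Liver and colon were hybridised on different slides and scanned on different days, so that tissue and slide cannot be told apart, and the tissue values did not choose the genes.

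Among the sensors, *Ern1* lay between 0.69 and 1.58 in the livers with a median of 1.25, and between -0.25 and 0.23 in the colons with a median of 0.05. No liver overlapped with a colon, and the difference was 1.17 (SE 0.05, adjusted p = 1.79e-25). *Atf6* ran from 0.65 to 1.65 in the livers and from -0.36 to 0.47 in the colons, again without overlap. Its difference was 1.02 (SE 0.07, adjusted p = 2.18e-17), and its second probe gave 1.29 (SE 0.05). *Eif2ak3* went the other way, with a liver median of -0.55 and a colon median of -0.06, overlapping ranges and a difference of -0.45 (SE 0.07, adjusted p = 3.35e-07). Thus the sensors of the splicing and the cleavage branch were higher in the liver and that of the eIF2 alpha branch was lower there, the last by less than 1.5-fold.

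*Xbp1*, the substrate of IRE1 alpha, ran from -1.07 to 1.19 in the livers with a median of -0.23 and from -0.86 to 0.42 in the colons with a median of -0.42. Its difference of 0.25 had a 95% interval of -0.0027 to 0.50 and did not pass (adjusted p = 0.0734). *Trib3*, a pseudokinase that holds back ATF4 and CHOP signalling, had the largest difference of the 10 genes, from a colon range of -1.15 to -0.57 to a liver range of 0.49 to 2.80. The difference was 2.21 (SE 0.12, adjusted p = 5.18e-21) and 1.42 by the second probe, the ranges of the leading probe being apart. *Herpud1* lay between -0.21 and 2.15 in the livers and between -0.32 and 0.21 in the colons, with a difference of 1.46 (SE 0.09, adjusted p = 9.6e-19). The only liver inside the colon range was HH replicate 3, and without the 3 mice that stood apart the difference was 1.52.

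*Atf3*, an immediate stress factor, was the one gene called lower in the liver, with a liver median of -1.72 against a colon median of -0.77 and a difference of -0.83 (SE 0.10, adjusted p = 1.2e-09). The ranges overlapped. Of the other genes of the eIF2 alpha branch, *Trib3* differed by more and in the other direction (2.21, as given above), and the rest moved less. *Atf4* differed by 0.44 (SE 0.08, adjusted p = 3.83e-06) and *Ddit3* by 0.30 (SE 0.07, adjusted p = 0.000212), both higher in the liver. *Ppp1r15a* had medians of 0.25 in the liver and 0.20 in the colon, and a difference of -0.01 with a 95% interval of -0.15 to 0.14. The ranges of 3 genes, *Trib3*, *Ern1* and *Atf6*, were wholly apart, against 23.2% of all probes. With median centring in place of loess, which moved the median of all probes from 0.01 to 0.22, the signs of *Atf4*, *Ddit3* and *Xbp1* turned (-0.16, -0.31 and -0.26), *Atf6* fell short of the fold at 0.42, and *Eif2ak3* and *Ppp1r15a* were called lower in the liver (-1.08 and -0.60).

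**Figure D1:**
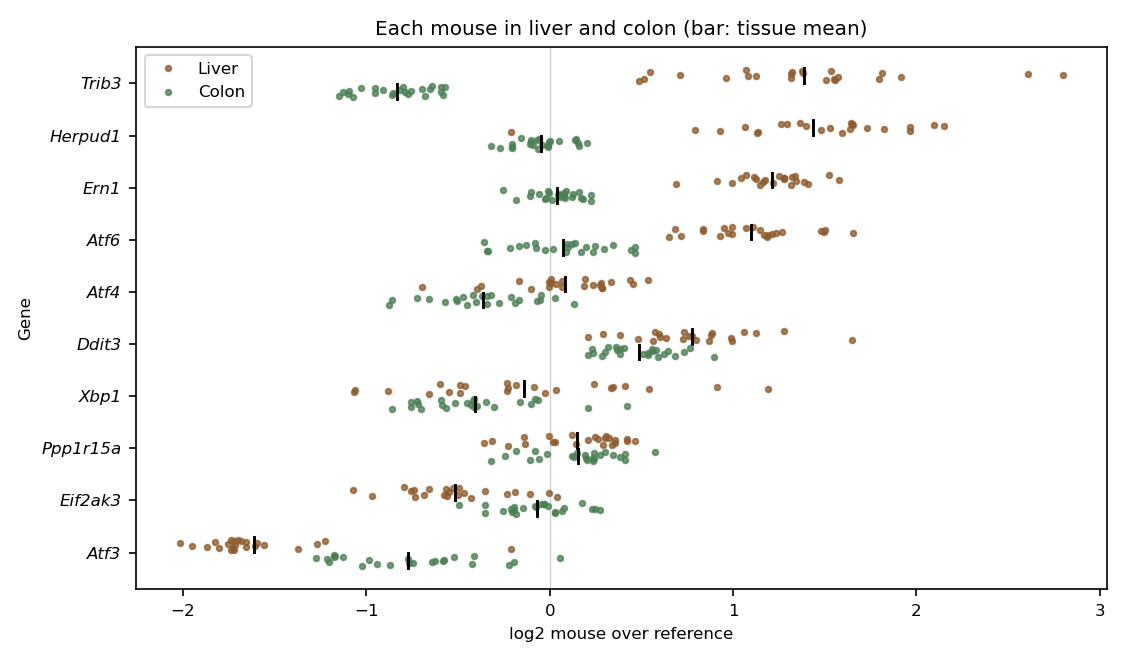
Log2 ratio of mouse over reference (horizontal axis) of each of the 10 genes in each liver (brown) and colon (green), 1 point per mouse, with a black bar at the mean of the tissue and the genes ordered by their difference. The points of *Trib3*, *Ern1* and *Atf6* do not overlap between tissues, *Herpud1* overlaps by 1 liver, and *Ppp1r15a* and *Xbp1* overlap widely.

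The genes on which the response acts differed between the tissues as well. Of 17 measured ER chaperones and folding enzymes, 11 were called higher and 2 lower in the liver, with a median difference of 1.02 against 0.01 over all named genes. *Hspa5* (BiP), the chaperone that holds the sensors inactive, was higher by 1.33, and *Hyou1* by 1.13, whereas *Ero1a*, an oxidase of the ER, was lower by 1.15 (a difference of -1.15). Of 15 genes of ER-associated degradation, 8 were called higher and 1 lower, with a median of 0.73, among them *Derl2* at 1.69 and *Syvn1* at 1.37. Of 22 targets of ATF4 and CHOP, 8 were called higher and 10 lower, with a median of -0.36. *Asns*, asparagine synthetase, differed by -4.22 and *Nupr1* by -5.11, while *Fgf21*, a hormone of the liver, differed by 3.65. Of 20 other sensors and regulators, 4 were called higher and 4 lower. These counts are to be read against the 30.4% of all probes that were called and the 14.6% called higher, from which the 8 calls among 20 regulators lie less far than those of the chaperones. *Ern2*, the sensor of goblet cells, differed by -2.94, and *Creb3l3*, a hepatic relative of *Atf6*, by 4.60. Lists are described by their counts and not tested as sets.

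In the liver, no probe of 41172 passed the fold and the adjusted p between HH and LH, and neither did any of the 10 genes. For the 10 genes the following values are the ones on which they were selected, and no test is given. LH livers had more *Xbp1*, *Herpud1*, *Trib3* and *Atf6* than HH livers and less *Ddit3*, and the difference was positive for 8 of 10 genes. It was positive for 7 of 10 without HH replicate 3, where *Ern1* turned, and also for 7 of 10 without HH replicate 2 or 5 or LH replicate 1 or 3. The median difference was 0.15, against -0.02 over all named genes. Over all probes 12% had an unadjusted p under 0.05 and 1.54% had groups that did not overlap. None of the 10 genes had groups apart by its leading probe, which is no contrast to so small a share.

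*Xbp1* in the 5 HH livers was -0.66, -0.49, -0.03, -1.07 and -0.55. The LH livers ran from -0.23 to 0.91 with a median of 0.34, the LL livers from -0.60 to 0.24 with a median of -0.35, and the HL livers from -1.06 to 1.19 with a median of -0.10. The HL mice were the most spread of the 4 groups, with an SD of 0.85 against 0.30 to 0.40 in the others. LH minus HH was 0.84 (SE 0.30), and LH was above HH on all 6 slides, each of which carried 1 array of each group, by 0.34 to 1.46. HH replicate 3 was on 2 of these slides.

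*Herpud1* in the HH livers was 1.13, 1.59, -0.21, 1.13 and 0.93. The third of these, HH replicate 3, was the lowest value of all livers and both its arrays gave it, at -0.25 and -0.17. LH livers ran from 1.06 to 2.15 with a median of 1.59, HL livers from 0.79 to 1.97 with a median of 1.68 and LL livers from 1.26 to 2.10 with a median of 1.5. LH minus HH was 0.71 (SE 0.26) with all mice and 0.43 without HH replicate 3. The higher groups overlapped with HH in either case.

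*Atf6* in the HH livers was 0.65, 1.19, 0.93, 0.72 and 1.17, and in LH livers it ran from 0.83 to 1.5 with a median of 1.37. LH minus HH was 0.36 (SE 0.13), with LH higher on all 6 slides. The second probe gave 0.31, and by this probe the groups were apart, the highest HH liver being at 1.04 and the lowest LH liver at 1.09. *Trib3* in the HH livers was 0.49, 1.55, 1.51, 0.51 and 1.55, and in LH it ran from 0.71 to 2.80 with a median of 1.35. The difference of 0.53 (SE 0.33) depended on LH replicates 3 and 5, at 2.80 and 2.61, and was 0.31 without the first and 0.34 without the second of them. The LH median was below 3 of the 5 HH livers.

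*Ddit3*, which encodes the proapoptotic factor CHOP, was 0.87, 0.56, 1.00, 1.65 and 0.80 in the HH livers and ran from 0.29 to 0.88 with a median of 0.68 in LH. The difference was -0.36 (SE 0.17), and -0.19 without HH replicate 4, the liver at 1.65. It was opposite in sign to that of *Trib3*, although both are known targets of ATF4. *Atf3* was -1.72, -1.74, -0.21, -1.37 and -1.80 in the HH livers, where HH replicate 3 again stood alone with -0.20 and -0.23 on its 2 arrays. The difference to LH was -0.30 with this mouse and -0.01 without it. *Atf4*, *Ppp1r15a*, *Ern1* and *Eif2ak3* differed by 0.17, 0.13, 0.11 and 0.04, each by less than 1 SD of the HH mice. Without HH replicate 3 *Ern1* differed by -0.0093 and *Eif2ak3* by 0.19, so that the sign of the first and the size of the second depended on this mouse, and *Eif2ak3* was -0.07 without HH replicate 5.

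**Figure D2:**
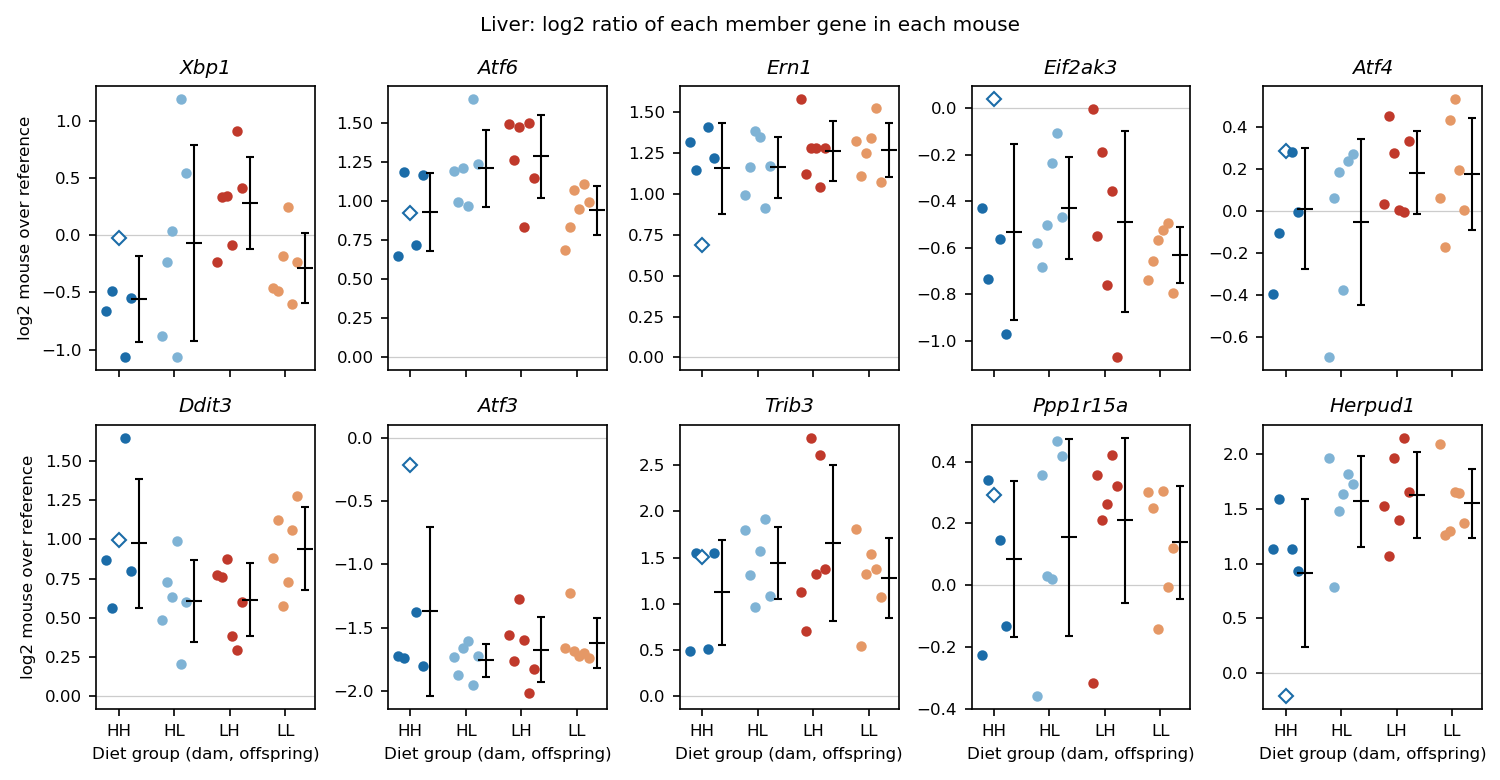
Log2 ratio of mouse over reference (vertical axis) of each gene in each liver by diet group, 1 point per mouse, with the mean and SD as a black bar beside the points. The open diamond is HH replicate 3, which has the lowest *Herpud1* and the highest *Atf3* of all livers, and the HL mice span the widest range of *Xbp1*.

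Other gene groups moved along with these values in the same livers. Of the 17 ER chaperones and folding enzymes, 15 were higher in LH than in HH, with a median of 0.52, among them *Hyou1* at 1.36, *Calr* at 0.56 and *Canx* at 0.52. All 15 genes of ER-associated degradation were higher, with a median of 0.34, among them *Vcp* at 0.40. The 22 targets of ATF4 and CHOP were split, with 12 higher and a median of 0.04, and 12 of 20 other sensors and regulators were higher with a median of 0.10. Clock genes of the *Dbp* phase were higher in LH for 10 of 10 genes with a median of 0.61, and all 5 of the *Arntl* phase were lower with a median of -0.32. All 6 hepatocyte markers were higher in LH, with a list mean of 1.46 to 1.81 in HH and 1.73 to 2.17 in LH, and all 5 Kupffer cell markers were lower, with 1.78 to 2.99 in HH and 1.68 to 2.78 in LH. All of these markers were well above background on all 24 liver arrays. The part of these in the values of the 10 genes was not tested.

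The comparison of HL and LL asks about the diet of the dam in offspring that had diet L themselves, and it shares no mouse with HH *vs.* LH. None of the 10 genes was called, and 2 of them, *Ddit3* and *Atf6*, had an unadjusted p under 0.05, against 3.08% of all probes. *Ddit3* ran from 0.21 to 0.99 in HL with a median of 0.62 and from 0.57 to 1.28 in LL with a median of 0.97. It was higher in LL by 0.33 (SE 0.16, 95% interval 0.0048 to 0.66, adjusted p = 1.00), where in LH it had been lower than in HH. *Atf6* was lower in LL by 0.27, a difference of -0.27 (SE 0.13, 95% interval -0.53 to -0.0030, adjusted p = 1.00) that was negative on all 6 slides, but its second probe gave -0.02 (interval -0.19 to 0.15). *Xbp1* differed by -0.22 with a 95% interval of -0.81 to 0.38, and by 0.03 without HL replicate 5. *Herpud1* differed by -0.02, with an interval of -0.53 to 0.49. The signs of *Xbp1*, *Herpud1*, *Trib3* and *Atf6* in the all-mouse fit were thus opposite to those between HH and LH, but only *Atf6* by its leading probe had an interval that left out 0. Without HL replicate 5 *Ddit3* differed by 0.25 (SE 0.16) and *Atf6* by -0.18 (SE 0.12), and with each mouse left out in turn they lost the unadjusted p under 0.05 in 13 and 11 of 23 fits. The chaperones gave 10 of 17 genes higher with a median of 0.10 and no gene with an unadjusted p under 0.05, and the degradation genes 5 of 15 with a median of -0.03. Of the latter 2 of 15 had such a p, *Syvn1* (0.45) and *Herpud2* (-0.25).

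The diet of the offspring was compared with the same dam diet, as HH *vs.* HL and LH *vs.* LL. These comparisons share the HH or the LH mice with the one on which the genes were selected, so that their values are not independent of it. Between HH and HL no gene was called, and 3 of the 10 had an unadjusted p under 0.05 against 4.37% of all probes. *Herpud1* was higher in HL by 0.65 (SE 0.26, 95% interval 0.12 to 1.19, adjusted p = 0.952), which was 0.37 (SE 0.22) without HH replicate 3. *Ddit3* differed by -0.37 (SE 0.17) and *Atf6* by 0.28 (SE 0.13) and 0.23 by its second probe (SE 0.09), the last higher on all 6 slides. Neither leading probe kept its unadjusted p under 0.05 with every mouse left out in turn. *Ddit3* was -0.20 (SE 0.15) without HH replicate 4 and lost it in 5 of 23 such fits, and *Atf6* was 0.19 (SE 0.13) without HL replicate 5 and lost it in 15 of 23. *Xbp1* differed by 0.49 with an interval of -0.13 to 1.11. In these livers 15 of 17 chaperones and 13 of 15 degradation genes were higher in HL, of which 1 each had an unadjusted p under 0.05, *Canx* and *Vcp*. All 10 clock genes of the *Dbp* phase were also higher in HL, with a median of 0.64, and their part was not tested.

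Between LH and LL, *Atf6* was the one gene with an unadjusted p under 0.05, against 6.38% of all probes. It was lower in LL, with a difference of -0.35 (SE 0.13, 95% interval -0.61 to -0.08, adjusted p = 0.768), and its second probe gave -0.10 (interval -0.27 to 0.07). *Xbp1* differed by -0.57 with an interval of -1.16 to 0.03, and *Ddit3* by 0.33 with one of -0.0027 to 0.66. With slide as a block the SE of *Xbp1* went from 0.29 to 0.25, and its adjusted p was 0.528. Of the chaperones 15 of 17 were lower in LL with a median of -0.17, 3 of them with an unadjusted p under 0.05, namely *Pdia4* (-0.71), *Hyou1* (-0.78) and *Canx* (-0.28). Of the degradation genes 13 of 15 were lower with a median of -0.18 and 5 had such a p, among them *Herpud2* at -0.29 and *Derl1* at -0.31. None of them passed the adjusted p.

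Lifelong diet was compared as HH *vs.* LL. This comparison, HL *vs.* LH and the offspring diet over both dam diets share the HH or LH mice with the comparison on which the genes were selected, and their values are not independent of it. *Herpud1* alone of the 10 genes had an unadjusted p under 0.05 by its leading probe, against 3.45% of all probes, with a difference of 0.64 (SE 0.26, 95% interval 0.10 to 1.17, adjusted p = 1.00) that was 0.35 (SE 0.22) without HH replicate 3. The leading probe of *Atf6* differed by 0.01 and the second by 0.21 (interval 0.03 to 0.39). Between HL and LH no gene had an unadjusted p under 0.05, against 1.74% of all probes, and none had one for the offspring diet over both dam diets, against 1.37%. As a description, the difference of LL and LH less that of HL and HH was -1.06 for *Xbp1*, -0.73 for *Herpud1*, -0.62 for *Atf6* and 0.69 for *Ddit3*. For each of these genes the means of HL and LH, whose diet was changed at weaning, lay on one side. The means of HH and LL lay on the other. They were 1.21 and 1.29 against 0.93 and 0.94 for the leading probe of *Atf6*, and 0.61 and 0.61 against 0.97 and 0.94 for *Ddit3*. Those of *Xbp1* were -0.07 and 0.28 against -0.56 and -0.29, and those of *Herpud1* 1.57 and 1.63 against 0.92 and 1.55. For *Herpud1* the LL mean lay close to that of HL. Its HL minus HH was 0.65 with all mice and 0.37 without HH replicate 3, so that its difference of differences rests in part on this mouse. *Trib3*, *Eif2ak3*, *Ppp1r15a* and *Atf3* had such a split too, *Atf3* with HL and LH lower, and *Atf4* and *Ern1* did not. How many of all genes had such a split was not counted. For the same difference of differences 11.4% of all probes had an unadjusted p under 0.05 (limma). It uses the HH and LH mice as well, so that it is not independent of the comparison on which the genes were selected. By the second probe of *Atf6* LL lay close to HL, with means of 0.92 in HH, 1.16 in HL, 1.23 in LH and 1.14 in LL.

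**Figure D3:**
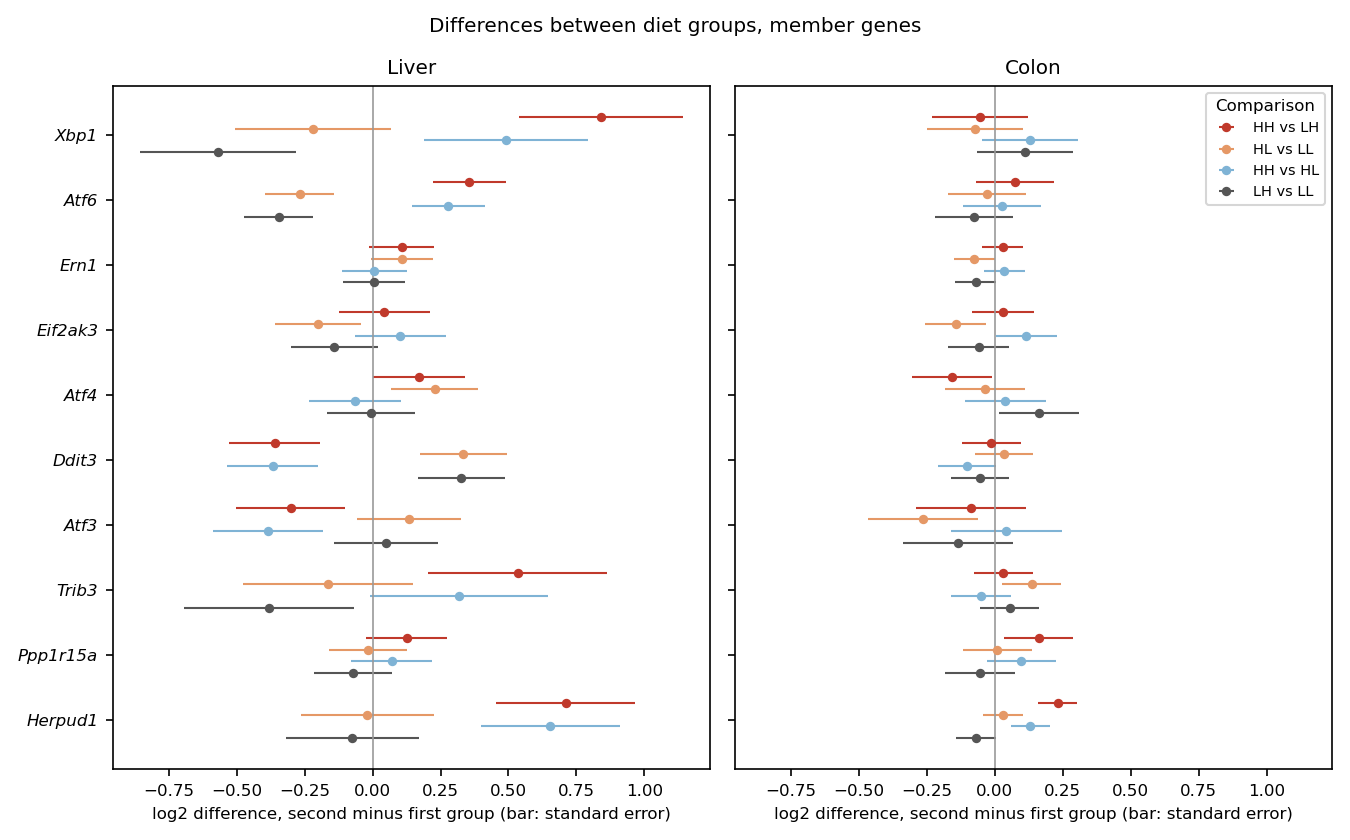
Difference in log2 ratio (horizontal axis), second minus first named group, of each gene in 4 diet comparisons in liver and colon, with the standard error as a bar. The values of *Xbp1*, *Herpud1* and *Atf6* for HH *vs.* LH (red) in the liver lie to the right of 0 and those for LH *vs.* LL (dark grey) to the left, and the colon values lie closer to 0.

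**Figure D4:**
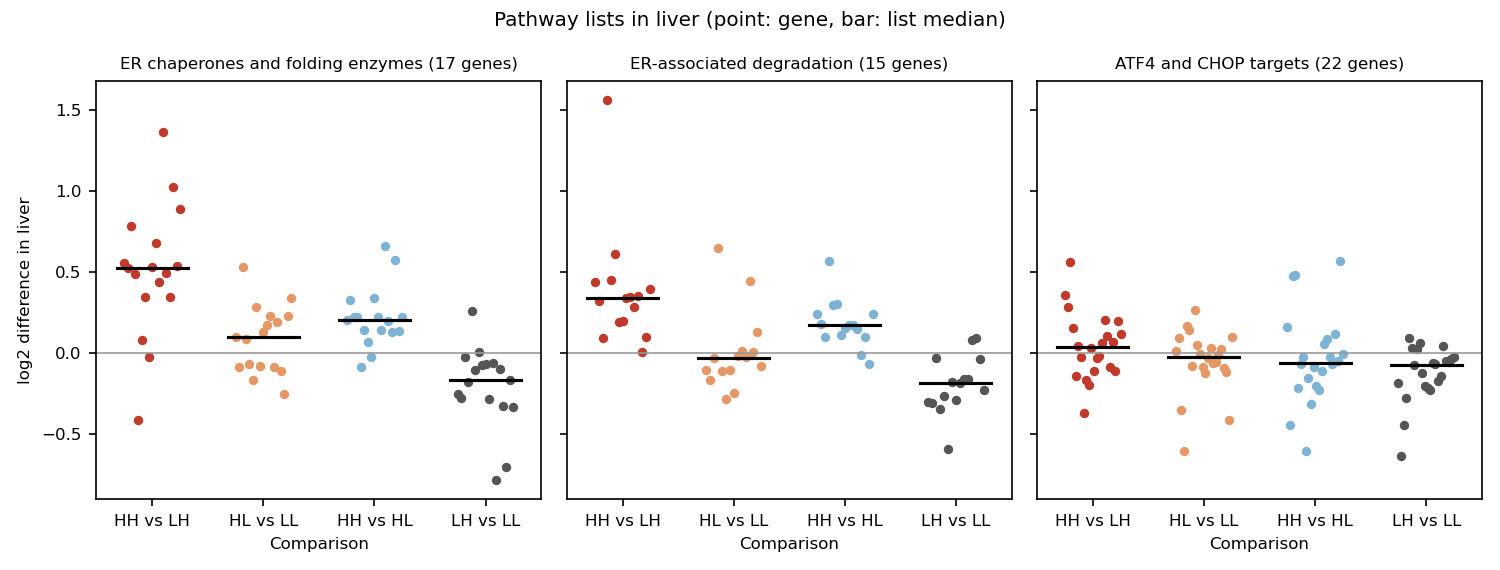
Difference in log2 ratio (vertical axis) of each gene of 3 lists in 4 liver comparisons, 1 point per gene, with a bar at the median of the list. The medians of the chaperones run from 0.52 for HH *vs.* LH to -0.17 for LH *vs.* LL, and those of the ATF4 and CHOP targets lie near 0 throughout.

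The colon, whose values chose none of the genes, gave no call in any diet comparison either. *Herpud1* was the gene with the clearest difference. In HH colons it ran from -0.32 to -0.01 with a median of -0.21, and in LH colons from -0.10 to 0.21 with a median of 0.03. LH was higher by 0.23 (SE 0.07, 95% interval 0.08 to 0.38, adjusted p = 1.00), on all 6 slides by 0.0083 to 0.43, and 1 of the 10 genes with an unadjusted p under 0.05 compares with 3.24% of all probes. With slide as a block its SE was 0.06 and its adjusted p = 0.363. It was higher in LL than in HH as well, by 0.16 (interval 0.01 to 0.31, and 0.13 with an SE of 0.07 without LL replicate 4), against 1.72% of all probes, and over both offspring diets by 0.13 for the low dam diet (interval 0.02 to 0.24), against 2.11%. The second of these lost its unadjusted p under 0.05 in 6 of 24 fits with a mouse left out, and the other 2 kept it in all 24. Over all the alternatives of processing, however, each of the 3 lost it at least once. The highest unadjusted p (limma) was 0.215 for LH, 0.384 for LL and 0.319 over both offspring diets. The smallest differences were 0.17, 0.12 and 0.07. The mice with *Xist* signal were 2 of 6 in HH, 1 of 6 in HL, none in LH and 3 of 6 in LL. Without them the differences of *Herpud1* were 0.30 (SE 0.08) for LH, 0.21 (SE 0.10) for LL and 0.15 (SE 0.06) over both offspring diets. These 3 comparisons share mice, and the difference is smaller than 1.5-fold in each.

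*Xbp1* in the colon ran from -0.86 to 0.21 in HH, from -0.76 to 0.42 in HL, from -0.76 to -0.16 in LH and from -0.72 to -0.07 in LL, with all groups overlapping. LH minus HH was -0.05 with an interval of -0.42 to 0.31. Of the colon chaperones 13 of 17 were lower in LH with a median of -0.15, *Dnajc3* (-0.27) being the one with an unadjusted p under 0.05, and 7 of 15 degradation genes were higher. No member had an unadjusted p under 0.05 for HL *vs.* LL, HH *vs.* HL, LH *vs.* LL or HL *vs.* LH, against 1.02%, 1.46%, 2.81% and 2.95% of all probes. The same held for the offspring diet over both dam diets and for the interaction of the diets, against 2.03% and 1.79%. For the difference between liver and colon in HL *vs.* LL, HH *vs.* HL and LH *vs.* LL, no member had such a p either, against 1.41%, 2.09% and 3.67% of all probes, the nearest being *Herpud1* in HH *vs.* HL with 0.52 (interval -0.01 to 1.06).

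**Figure D5:**
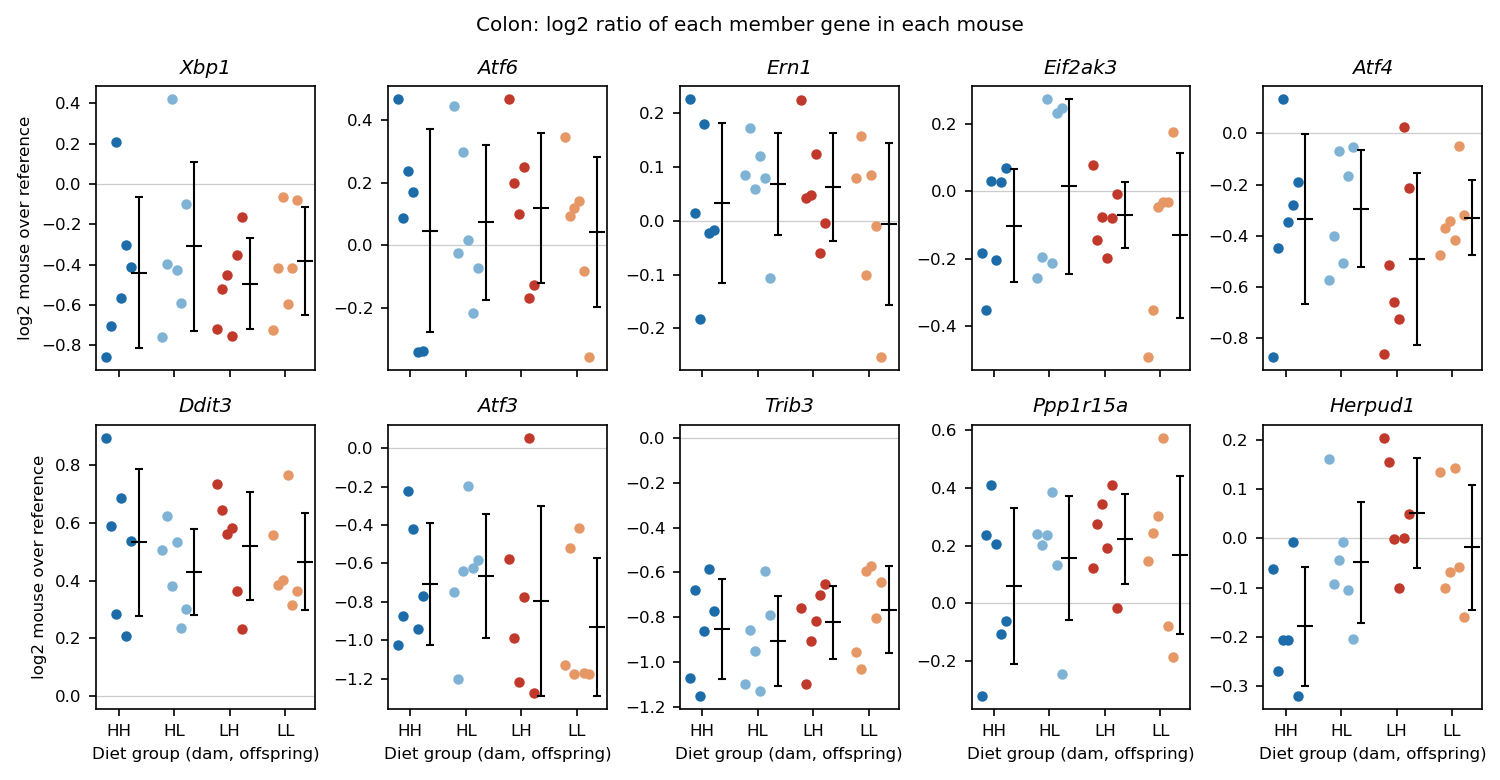
Log2 ratio of mouse over reference (vertical axis) of each gene in each colon by diet group, 1 point per mouse, with the mean and SD as a black bar. *Herpud1* lies lowest in HH, from -0.32 to -0.01, and overlaps with the other groups, as the groups of the other genes do.

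How the genes varied together from mouse to mouse was examined on values from which the mean of the group had been taken, over 90 pairs of genes, 45 in each tissue (permutation test with 100000 resamples, two-sided, adjusted over the 90). The permutations moved mice freely across slides, so that the p-values take no account of the slide. In the liver 4 pairs passed an adjusted p of 0.05. *Xbp1* rose with *Ppp1r15a* over the 23 livers (r = 0.62, permutation p = 0.00162, adjusted p = 0.0172; rho = 0.63, permutation p = 0.00137). This r was 0.51 without the 2 livers farthest from the median of *Ppp1r15a* and 0.72 with the slide mean also taken away. *Xbp1* rose with *Atf4* too (r = 0.60, permutation p = 0.00224, adjusted p = 0.0202; rho = 0.59, permutation p = 0.00353), with r = 0.54 without the farthest 2 and 0.56 within slides. Many other genes followed *Xbp1* more closely. With groups left in, *Ppp1r15a* and *Atf4* were at ranks 1121 and 1517 of 13613 genes by their r with *Xbp1* in the liver. Pairs of genes outside the family were not counted. The other 2 pairs rested on HH replicate 3. *Atf3* and *Herpud1* had r = -0.56 with it and -0.07 without it (rho = -0.30, permutation p = 0.171), and *Atf3* and *Eif2ak3* had r = 0.54 and 0.25.

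In the colon 13 pairs passed. *Atf4* and *Ddit3*, a factor and its target, ran against each other (r = -0.77, permutation p = 2e-05, adjusted p = 0.0018; rho = -0.77, permutation p = 4e-05), with r = -0.72 without the 2 farthest colons. With the slide mean also taken away it was -0.36. *Atf4* and *Xbp1* had r = 0.71 (permutation p = 0.00015, adjusted p = 0.00517; rho = 0.72, permutation p = 0.00012) and 0.57 within slides. Others lost most of their size within slides. *Ern1* and *Xbp1* went from -0.67 to -0.20, *Atf6* and *Ddit3* from 0.62 to -0.12, and *Atf4* and *Atf6* turned from -0.55 to 0.47. Mice on 1 slide deviated together in the colon, so that these pairs share the slide as well as the array. The permutation p-values of the colon pairs and the count of 13 may therefore be too strong.

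*Xbp1* was set against 18 list means and array measures in each tissue, 36 relations in all. The permutation was the same and took no account of the slide. In the livers it rose with the mean of the hepatocyte markers (r = 0.72, permutation p = 0.00011, adjusted p = 0.00396; rho = 0.75, permutation p = 0.00012; 0.65 without the farthest 2) and with the SD of the log2 ratios of the array (r = 0.67, permutation p = 0.00037, adjusted p = 0.00666; rho = 0.60, permutation p = 0.00264; 0.58 without the farthest 2). It fell with the markers of plasma cells (r = -0.63), colon epithelium (r = -0.61) and goblet cells (r = -0.59). These lists are weak in the liver. *Tnfrsf17* was well above background on 0 and *Slc26a3* on 16 of the 24 liver arrays. The goblet genes had mean log2 ratios of -7.40 to -1.90 there, and *Sdc1* of the plasma cell list was higher in the liver (1.70) than in the colon (0.88). What these relations stand for was not tested. With the slide mean also taken away, r was 0.70 with the hepatocyte markers, 0.68 with the SD, -0.50 with plasma cells, -0.38 with colon epithelium and -0.45 with goblet cells. In the livers *Xbp1* had r = 0.12 with the clock genes of the *Dbp* phase (permutation p = 0.593, adjusted p = 0.729). Its r with those of the *Arntl* phase was -0.26 (permutation p = 0.228, adjusted p = 0.384). With the mean of the ATF4 and CHOP targets *Xbp1* had r = -0.41 in the livers (permutation p = 0.0558, adjusted p = 0.143). In the colons this r was -0.43 (permutation p = 0.0388, adjusted p = 0.114). Within slides *Xbp1* had r = -0.46 and -0.07 with these targets in the livers and the colons. With the ER chaperones it had r = 0.33 in the livers (permutation p = 0.123, adjusted p = 0.245) and r = 0.66 in the colons (permutation p = 0.00062, adjusted p = 0.00744; rho = 0.61, permutation p = 0.00208; 0.55 without the farthest 2). The colon value was 0.32 with the slide mean also taken away and that of the livers 0.17, so that the relation in the colons was smaller within slides. The SD of the log2 ratios had medians of 0.86 on the HH and 0.92 on the LH liver arrays, and its part in the *Xbp1* values was not tested.

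As a description over the mice of a tissue, with groups left in, the 5 genes most like *Xbp1* in the liver were *C1rb*, *Sdha*, *C1s2*, *Arih2* and *Rars*, with r from 0.94 to 0.96 over 23 mice among 13613 genes. Of the other 9 members *Atf6* came nearest, with r = 0.65 at rank 951, and *Ddit3* lay at the far end with r = -0.62. In the colon the 5 were *Tsnax*, *Net1*, *Kif13a*, *Rhot1* and *Cttn*, with r from 0.92 to 0.94 over 24 mice among 15143 genes, and *Atf4* came nearest of the members with r = 0.72 at rank 450. No gene was among the 5 in both tissues, and all values of a mouse share an array.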

How the data were processed

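The authors hybridised Cy3-labelled RNA of each mouse with a Cy5-labelled reference and scanned 48 arrays. They deposited, for each array, unnormalized spot and background intensities, together with background-subtracted and dye-normalized processed intensities. A deposited table of log2 ratios correlated with raw log2 Cy3 over Cy5 at -0.997 to -0.652 and is thus reference over mouse, with column medians of -0.0077 to 0.0144 and unknown centring. The file headers give Feature Extraction 10.10.1.1, and the submitters' processing notes limma and R 3.0.2.

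Here the raw intensities were processed in R 4.3.3 with limma 3.58.1 and the package data.table (version 1.17.8). A local background brighter than its spot was replaced by the array's median background in that channel (at most 12 spots in Cy3 and 544 in Cy5 on an array). Intensities were then background-corrected (normexp, offset 50) and ratios loess-normalized within the array, control spots and outlier-flagged spots were left out, and spots of a probe were averaged. Of 45018 spots 43379 were not controls. RefSeq accessions named 27050 probes, and 14124 had no name. For each gene the probe with the highest mean signal was used, and other probes are given where they disagree.

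Each tissue was fitted as 4 groups, and both tissues as 8 groups for tissue comparisons (lmFit and eBayes), with Benjamini-Hochberg adjustment over all probes with values in at least 2 mice of each group. A probe was called at a fold change over 1.5 and an adjusted p under 0.05. The model was tested on simulated data. The members and the lists were chosen with earlier results of these data known. Named genes were all members, the list genes past the test or else those with the lowest p, of which some are shown, and the 5 genes most like *Xbp1*. The number of mice limits the precision, and the depth of an array is the share of its spots above background. Same-slide mice deviated together in the colon, where the median correlation of their deviations was 0.358 and 34 of 36 pairs were over 0.1, but less so in the liver, with 0.146 and 18 of 33. The model had no slide term, since the study's methods name none, and slide as a block was an alternative.

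The alternatives were no background correction, normexp offset 0 or without replaced backgrounds, processed signals, median centring, Cy3 alone, the deposited table, a filter on dim probes, both arrays of 1 mouse as 2 mice or only 1 of them, the mean over all probes of a gene, no mice with *Xist*, slide as a block, only the 2 groups or all 8 groups, no fold threshold, and each mouse left out. Leaving out the 3 mice that stood apart was added after seeing the data.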

Additional observations from a re-analysis of the deposited data

Results flagged for a closer look

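Among 80 sets of a gene, tissue and diet group, 4 held a mouse whose distance to its neighbour took up an unusually large share of the range of the group, a share that chance exceeds in about 1 of 20 sets. *Atf3* in HH livers was highest in replicate 3, at -0.212 against -1.3743 in the next mouse (0.731 of the range). *Atf3* in LL livers was highest in replicate 2, at -1.2248 against -1.6585 (0.842 of the range). *Ppp1r15a* in LH livers was lowest in replicate 1, at -0.3174 against 0.2106 (0.714 of the range). *Atf4* in LL colons was highest in replicate 5, at -0.0484 against -0.3189 (0.634 of the range). The causes were not tested.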

How the results depend on the processing

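None of the 10 genes was called in a diet comparison that was tested in either tissue (HH *vs.* LH in the liver not being one) under any alternative that was run, including each mouse left out and the 3 mice that stood apart left out. Between liver and colon 5 genes were called, and 8 with no fold threshold. Median centring turned *Atf4* (-0.16), *Ddit3* (-0.31) and *Xbp1* (-0.26), and *Ppp1r15a* turned with normexp offset 0 (0.085), processed signals (0.0693), 2 arrays as 2 mice (0.00347) and without the 3 mice (0.0279), from a value near 0. With each mouse left out, *Ppp1r15a* ran from -0.0253 to 0.0212 between liver and colon, *Xbp1* from -0.418 to 0.0327 for HL *vs.* LL in the liver, turning without HL replicate 5, and from -0.139 to 0.0753 for HH *vs.* LH in the colon, turning without HH replicate 3. Of 553 values of single genes outside the fits with a mouse left out, 540 were counted as unchanged. Of the rest 7 turned, as named above, 5 newly passed the threshold and 1 lost it. For HH *vs.* LH in the liver, unchanged meant a move of less than 1 SD between mice, and elsewhere the same direction and side of the threshold. In that comparison 7 rather than 8 of the 10 genes were positive with 2 arrays as 2 mice, with normexp without replaced backgrounds and without the 3 mice. With slide as a replicate block, the differences of LH and HH livers were 0.78 for *Xbp1* and 0.72 for *Herpud1*, and the pairing of mice by slide changed no call. Over all probes, the calls between liver and colon were 12497, with 48.2% higher in the liver, and 24223 with 57.8% higher under median centring, 20179 with processed signals and 28646 with no fold threshold. For HH *vs.* LH in the liver 0 probes were called, but 6 with 2 arrays as 2 mice, 17 with only the 2 groups and 106 in the fit of all 8 groups. The block and Cy3 alone were not run between tissues. The number of mice and 1 probe for most genes limit what could be seen.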
